A study of Mus musculus with 44 samples.

Results

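Fibroblasts that lacked CD26 were sorted from mammary tumors of the WB1P-Myc model and compared with fibroblasts of the same surface phenotype from control mammary tissue. CD26 is a cell-surface peptidase encoded by Dpp4, and it divides mouse mammary fibroblasts into a CD26+ and a CD26− population. The members are the sorts labelled EN1+ or -/-, which are the CD26− sorts, from 5 WB1P-Myc mice and 3 wildtype control mice, and they make up 14 of the 44 libraries of the series. The counts of the libraries of each mouse were added, so that 5 values of CD26− cancer-associated fibroblasts (CD26− CAFs) stood against 3 values of CD26− normal fibroblasts (CD26− NFs).

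All recipients carried EN1-Cre and the mTmG reporter, in which Cre turns red fluorescence into green, so that cells with a history of the transcription factor En1 could be sorted as En1+ and the remaining CD26− cells as -/-. The controls received control mammary tissue and the tumor mice received WB1P-Myc tissue, in which WapCre deletes Brca1 and Trp53 in mammary epithelium and turns on a Myc transgene. Its alleles are Brca1 F/F, with Trp53 F/F, and the transgene Col1a1 invCAG-Myc-IRES-Luc. WapCre is active in mammary epithelium and not in fibroblasts. The recipients kept their own fat pads and fibroblasts, and all mice were female and on or backcrossed to FVB/n. Mice 23 and 69 bear the mark 8x8, a tumor size of 8 × 8 mm in the terms of the methods, and mice 21, 67 and 95 bear no such mark. Each control label bears a pair of numbers (82/83, 49/52 and 44/46) and was counted as 1 mouse, since the labels do not say whether 2 animals were pooled. The labels give no age.

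Fibroblasts make and remodel the collagen-rich matrix of the mammary stroma and signal to the epithelium through growth factors, Wnt and BMP ligands. In tumors, part of them takes on contractile proteins such as smooth muscle actin (myofibroblast-like CAFs, myCAFs) and part of them secretes cytokines (inflammatory CAFs, iCAFs). Pericytes, the contractile cells that wrap small vessels, share many of these contractile genes with myofibroblasts. The cells were gated as EpCAM−/CD49f−/CD31−/CD45−, a gate that removes epithelial, endothelial and blood cells and holds no pericyte marker.

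The 14 libraries held between 9770166 and 15055726 counted reads each. Values per gene below are CPM, the reads of a gene in every 1000000 reads, after TMM scaling over all 25 mouse sums of the series. They are given in the order 82/83, 49/52, 44/46 for NFs and 21, 67, 95, 23, 69 for CAFs. They are compared between mice, never between genes. Dpp4 stood between 1.37 and 15.1 CPM in each CD26− library and between 258 and 809 CPM in each CD26+ library, so the 2 sorts did not overlap at this gene. Of 12 pan-fibroblast genes, Pdgfra, Dcn and Lum were lower (-1.37, -1.50 and -1.49 on the log2 scale), and S100a4 was higher, from 0.33 to 0.548 CPM in NFs to 1.91 to 4.65 CPM in CAFs (3.09). The other 8, Col1a1, Col1a2, Col3a1, Pdgfrb, Thy1, Vim, Fap and Pdpn, did not pass the test between CAFs and NFs (Vim and Pdpn passed with the mouse as a replicate block, adjusted p = 0.0375 and 0.0262). The sum of all 12 ran from 45880.0 to 60554 CPM in NFs and from 42577 to 69225 CPM in CAFs. The epithelial markers summed to 36.2 to 93.8 CPM in NFs and 43.8 to 178.6 CPM in CAFs, and the immune markers to 24.4 to 34.8 CPM and 28.8 to 113 CPM. Of the markers tested, 1 of 12 epithelial and 2 of 11 immune markers were higher and none lower. The higher epithelial marker was Itga6, whose fits without a mouse are not given here. Epcam, Cdh1 and the keratin genes of that list did not pass the test between CAFs and NFs. Of the other lists, 3 of 6 adipocyte and 6 of 6 skeletal muscle markers were lower and 0 of 6 Schwann cell markers passed. Of 13 immediate early genes 1 was higher and 1 lower. The share of mitochondrial mRNA was 0.575% to 0.651% in NF libraries and 0.683% to 1.325% in CAF libraries, with 3 of 8 such genes higher. Control mouse 49/52 stood apart from the other 2 controls, with chi-square values per gene of 76.1 to 115 against 20.3 to 25.9 between 82/83 and 44/46. It held the highest sum of skeletal muscle markers (292 CPM against 60.6 and 74.4 CPM in the other controls), a list of which 2 genes were lower with DESeq2 and 1 in the En1+ libraries alone.

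CD26− CAFs differed widely from CD26− NFs. Of 15569 genes tested with edgeR's quasi-likelihood test, 953 genes (6.12%) were higher and 501 genes (3.22%) lower in CAFs at an adjusted p (Benjamini-Hochberg) under 0.05 and a change over 4-fold, which is 2 on the log2 scale. At any fold change, 17.3% of the genes tested were higher and 16.5% lower. The mice of both groups did not overlap at 37% of the genes, with CAFs higher at 19.6% and lower at 17.4%. These shares are the background for every list count below, and list members are counted at any fold change. With single libraries and the mouse as a replicate block (limma voom), 613 genes were higher and 421 lower. Among 548 tested members of the gene lists, 178 were higher and 62 were lower. The first count was 111 without control 44/46. Errors of log2 fold changes are standard errors of the fit, and the median over all genes tested was 0.02. Genes named as higher or lower kept an adjusted p under 0.05 when any mouse was left out unless the mouse is named, and with the mouse as a replicate block unless that value is given. The data are bulk RNA, in which fewer cells of a type and less RNA per cell cannot be told apart.

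**Figure D1:**
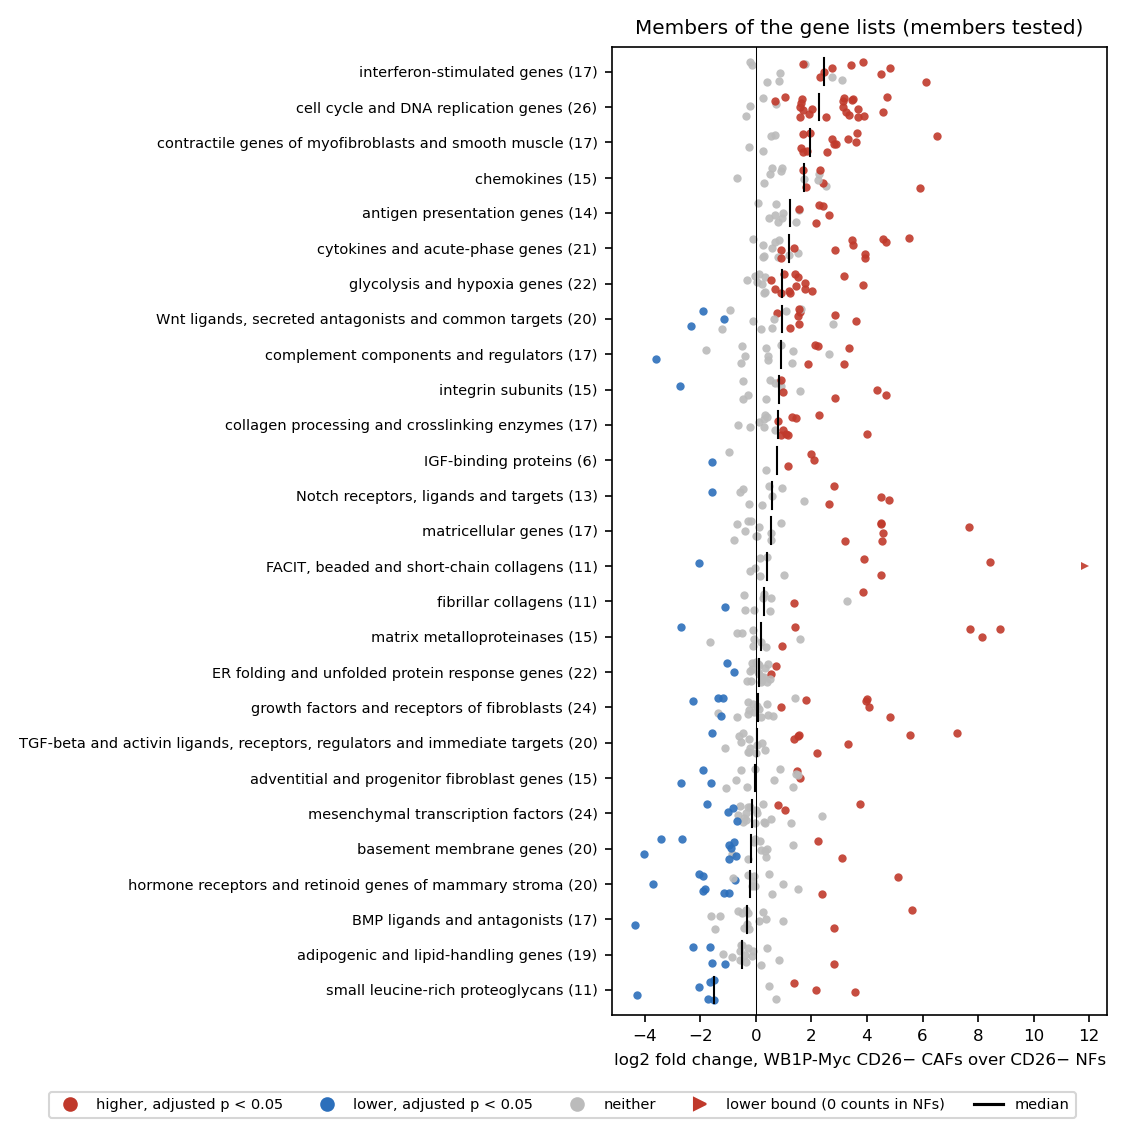
Log2 fold change (x axis) of each tested member of the gene lists (y axis, members tested in parentheses; lists of cell type markers, RNA quality and the genes altered in the epithelium are not drawn) in WB1P-Myc CD26− CAFs over CD26− NFs, 5 against 3 mice. Red points were higher and blue points lower at an adjusted p under 0.05, grey points passed neither test, black bars are list medians, and the triangle is the lower bound for Col10a1. Of the lists drawn, interferon-stimulated, cell cycle and contractile genes had the highest medians, and small leucine-rich proteoglycans the lowest.

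The genes with the largest rise were close to or at 0 in the NFs. Col10a1, the network collagen of hypertrophic cartilage, had no read in any NF and stood at 1.15, 24.7, 58.5, 454 and 0.743 CPM in the CAFs. With the reads of each group pooled, it was at least 3643-fold higher against a floor of 3 counts over the group. This bound does not hold for each CAF mouse. Its level differed widely between the CAF mice, with the highest value in mouse 23 and the lowest in mouse 69, both of them marked 8x8. The call of Col10a1 was lost in 5 of the 8 fits without a mouse (adjusted p = 0.0566 to 0.102 without each of control 82/83, control 49/52, control 44/46, CAF mouse 67 and CAF mouse 95), and with the mouse as a replicate block (adjusted p = 0.286). Tbx20, a T-box transcription factor, was also at 0 in all NFs and stood at 18.6, 6.31, 19.2, 8.06 and 4.27 CPM in CAFs, at least 277-fold higher with pooled reads. Tnn (tenascin-N), the axon guidance ligand gene Slit1, Gm6093, Tmem273, the antimicrobial lectin gene Reg3g, Glipr1 and the chromatin protein gene Hmga2 had between 1 and 3 reads over the 3 NF mice. Their ratios of CAF to NF levels, with exact intervals that cover counting error only, were 1921 (95% interval 657 to 9318) for Tnn, 966 (95% interval 267 to 7979) for Slit1, 917 (95% interval 164 to 36257) for Gm6093, 569 (95% interval 194 to 2760.2) for Tmem273, 730.0 (95% interval 249.5 to 3542) for Reg3g, 597 (95% interval 204 to 2896) for Glipr1 and 471 (95% interval 161 to 2286) for Hmga2. With the mouse as a replicate block, the calls of Tnn and Hmga2 were lost (adjusted p = 0.094 and 0.167). Glipr1, for example, stood at 13.2, 23.3, 24.6, 21.7 and 19.2 CPM in the CAFs.

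Mmp13, a collagenase, rose from 1.69, 0.183 and 0.825 CPM in NFs to 324, 814, 213, 153 and 496 CPM in CAFs (log2 fold change 8.77 ± 0.95, adjusted p = 0.000693). Chl1, a neural cell adhesion molecule, rose from 0.323, 0.657 and 0.495 CPM to 147, 421, 68.7, 47.8 and 245 CPM (log2 fold change 8.53 ± 0.99, adjusted p = 0.000901). Col8a1, a short-chain collagen of vessel walls, rose from 3.2, 4.64 and 3.43 CPM to 499, 1582, 1002, 2924 and 568 CPM (log2 fold change 8.44 ± 0.83, adjusted p = 0.00058). These genes were picked among those at which the mice of both groups did not overlap, so their separation is no further result.

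Wnt9b, a Wnt ligand, had the largest fall, from 77.9, 2.08 and 33.5 CPM in NFs to 0.072, 0, 0.069, 0.076 and 0.046 CPM in CAFs (log2 fold change -9.49 ± 1.20, adjusted p = 0.00119). Its NF level was lowest in mouse 49/52. Inmt, which methylates indole amines, fell from 57.2, 279 and 144 CPM to 0, 0.509, 1.24, 0.382 and 0.465 CPM (log2 fold change -8.30 ± 0.71, adjusted p = 0.000432), with the highest NF level in that same mouse. Kcnn3, a calcium-activated potassium channel gene, fell from 217, 59.8 and 259 CPM to 0.864, 0.102, 0.963, 0.917 and 0.418 CPM (log2 fold change -8.18 ± 0.67, adjusted p = 0.000386). Nos1, the neuronal nitric oxide synthase, fell from 159, 109 and 224 CPM to 6.12, 2.71, 2.55, 1.38 and 1.07 CPM (log2 fold change -5.93 ± 0.54, adjusted p = 0.000495). The rule that picked these 4 genes likewise asked for no overlap between the mice of both groups. Mgat5b, Hs3st6, Unc80, Rnf182 and Ism2 fell as well, with log2 fold changes of -7.14, -6.88, -6.65, -6.13 and -5.79. Mouse 49/52 had the lowest NF level of each. The other genes among the 12 largest falls were the skeletal muscle genes Ckm, Atp2a1 and Myh4 (-7.01, -6.97 and -5.95 on the log2 scale), of which Atp2a1 and Myh4 did not pass with the mouse as a replicate block (adjusted p = 0.0501 and 0.0874). Ckm, the muscle creatine kinase, stood at 4.56, 50.8 and 4.52 CPM in NFs, so its level was carried by mouse 49/52, and it stood at 1.01, 0, 0, 0 and 0 CPM in CAFs.

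Genes of the contractile apparatus rose together. Of 17 tested, 13 were higher in CAFs and none was lower, with a median log2 fold change of 1.96, against 17.3% of all genes higher. Acta2, the smooth muscle actin that defines myofibroblasts, stood at 102, 33.7 and 104 CPM in NFs and at 1036, 994, 964, 1372 and 458 CPM in CAFs (log2 fold change 3.59 ± 0.50, adjusted p = 0.00176). The lowest CAF mouse was above every NF mouse. Actg2, the enteric smooth muscle actin, rose from 0.646, 1.39 and 0.594 CPM to 64.5, 82.3, 89.9, 137 and 26.4 CPM (log2 fold change 6.51 ± 0.66, adjusted p = 0.000587). Tagln, an actin-binding protein gene, rose from 111, 25 and 73.8 CPM to 308, 612, 550.2, 877 and 261 CPM (log2 fold change 2.89 ± 0.58, adjusted p = 0.00716). Mouse 69 had the lowest CAF level of each of these 3 genes, and mouse 49/52 the lowest NF level of Acta2 and Tagln.

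The rise included Cnn1 (calponin, log2 fold change 2.82 ± 0.32, adjusted p = 0.000831) and Des (desmin, log2 fold change 3.65 ± 0.69, adjusted p = 0.00556). It also included the filament gene Lmod1 (log2 fold change 3.31 ± 0.51, adjusted p = 0.00242) and Actn1 (alpha-actinin, log2 fold change 2.56 ± 0.28, adjusted p = 0.000703). Smaller rises were those of the tropomyosins Tpm1 (1.68) and Tpm2 (1.69) and the myosin light chain gene Myl9 (1.85). Myh11, the smooth muscle myosin heavy chain, rose from 11.2, 28.1 and 23.1 CPM to 242, 126, 158, 62.7 and 106 CPM (log2 fold change 2.74 ± 0.50, adjusted p = 0.00463). Cnn2 and Mylk, the kinase of myosin light chain, were higher by 1.63 and 1.96 (for Cnn2, adjusted p = 0.0617 without control 44/46 and for Mylk, adjusted p = 0.0533 without control 49/52 and 0.05 without control 44/46). Cald1, Vcl, Flna and Smtn, which encode actin-binding proteins, did not pass the test, with log2 fold changes of 0.68, 0.54, 0.25 and -0.23. Of these, Cald1 passed with the mouse as a replicate block (adjusted p = 0.0336).

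Pericyte markers moved with the contractile genes. All 8 were higher in CAFs, with a median log2 fold change of 4.03. Their summed level was 215 to 386 CPM in NFs and 2462 to 9085 CPM in CAFs, with the highest sum in mouse 21. Rgs5, a regulator of G-protein signaling that marks pericytes, rose from 15.4, 29.5 and 38.6 CPM to 4044, 1441, 2049, 1419 and 1324 CPM (log2 fold change 6.21 ± 0.62, adjusted p = 0.000584). Mcam, which encodes CD146, rose from 9.48, 8.98 and 10.5 CPM to 984, 444, 541, 891 and 257 CPM (log2 fold change 6.01 ± 0.55, adjusted p = 0.000499). Higd1b rose from 0.072, 0.073 and 0.165 CPM to 91.3, 14.6, 40.0, 14.1 and 17.2 CPM (log2 fold change 8.34 ± 1.09, adjusted p = 0.00134). Both groups were fully apart at all 8 markers, against 19.6% of all genes tested that were apart with CAFs higher. No marker was at 0 in every NF.

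Cspg4, the NG2 proteoglycan, Kcnj8, a potassium channel subunit, Ndufa4l2 and the receptor gene Notch3 were higher by 4.37, 3.68, 2.84 and 2.64 on the log2 scale. Abcc9, the channel partner of Kcnj8, was higher by 3.06 (adjusted p = 0.0613 without control 82/83 and 0.069 without control 44/46). Of the endothelial markers, Emcn (3.59) and Esam (3.75) were higher as well, while Vwf (-2.03), Tek (-1.94) and Pecam1 (-1.34, adjusted p = 0.0505 to 0.121 without each of control 82/83, control 49/52, control 44/46, CAF mouse 95, CAF mouse 23 and CAF mouse 69) were lower. The other 5 of 10 endothelial markers passed neither test. Among the CAF mice, mouse 69 had the lowest mean of both lists, and the other mice lay close together in the contractile list. The mean log2 level of the pericyte markers over that of the NFs was 5.32 in mouse 21 and 3.29 to 4.27 in the other CAF mice. That of the contractile genes was 2.22 to 2.39 in mice 21, 67, 95 and 23 and 1.58 in mouse 69. The part of pericytes in the rise of the contractile genes was not tested.

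**Figure D2:**
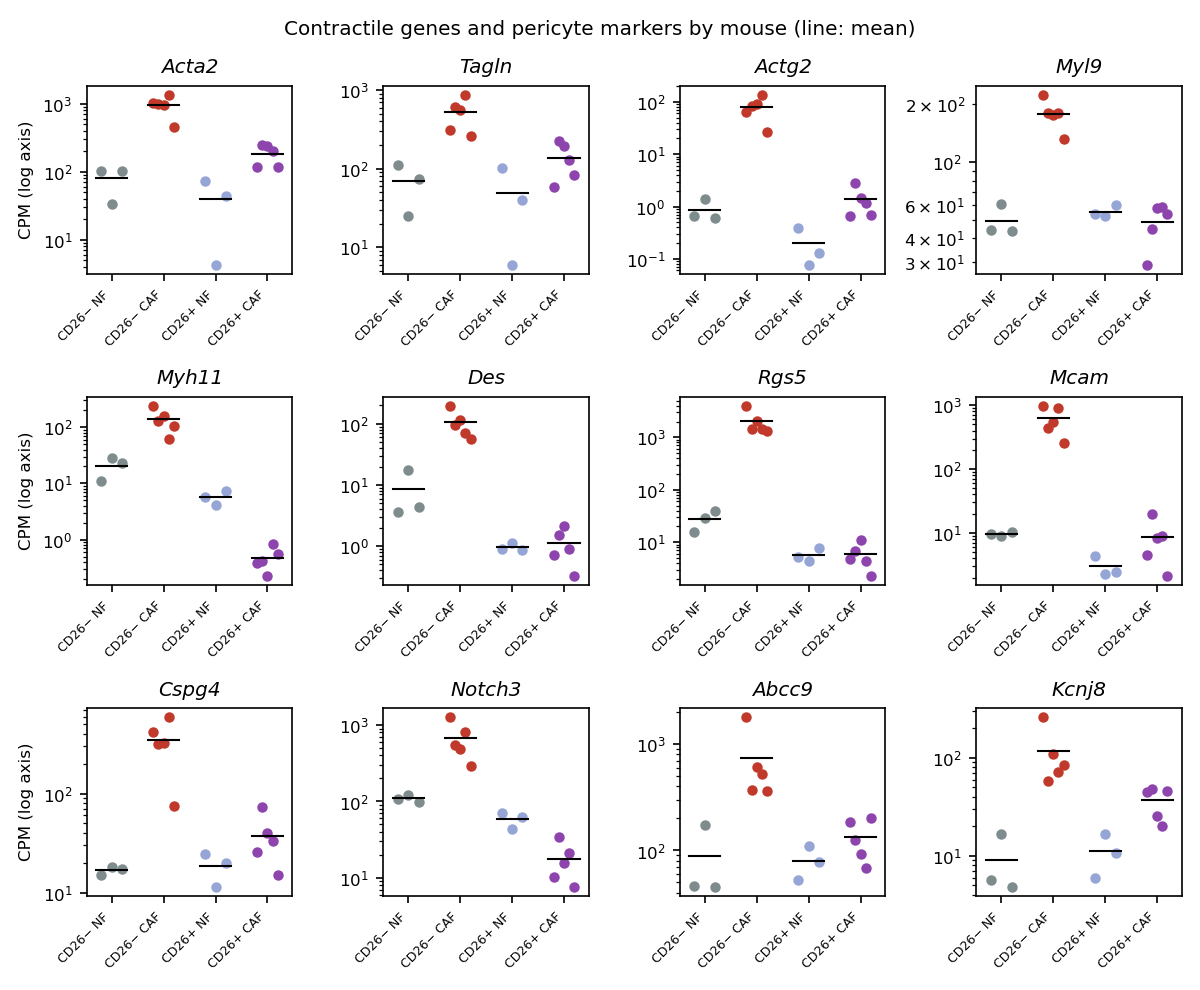
CPM (log axis) of contractile genes and pericyte markers in every mouse of 4 groups, CD26− NFs and CD26+ NFs (3 mice each) and WB1P-Myc CD26− CAFs and CD26+ CAFs (5 mice each), with points for mice and a line for the group mean. Acta2, Rgs5 and Mcam stood higher in every CD26− CAF mouse than in any CD26− NF mouse, and Myh11 stood low in CD26+ CAFs.

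Serum response factor and its partners act on contractile genes through the CArG box (cytosines, a run of adenines or thymines, then guanines). The motif is its own reverse complement in form, so a match on either strand is a match on both. RefSeq promoter windows of the build GRCm38.p6 (250 bases before to 50 bases after each gene start) were matched for 14 of the 17 contractile genes, and 3 of them held a CArG box, against 488 of 27025 genes searched (1.81%). The stretches around the boxes of these genes are shown since they are the ones in which the motif was found, on the plus strand with the box in capitals, Myl9 at chr2:156775263-156775352, Cnn2 at chr10:79988504-79988593 and Vcl at chr14:20929148-20929220.
Myl9: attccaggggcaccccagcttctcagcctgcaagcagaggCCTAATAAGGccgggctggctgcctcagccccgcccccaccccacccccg
Cnn2: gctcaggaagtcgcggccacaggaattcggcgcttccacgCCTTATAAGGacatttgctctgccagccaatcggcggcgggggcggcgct
Vcl: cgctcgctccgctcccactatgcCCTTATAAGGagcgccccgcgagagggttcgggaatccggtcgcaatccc
The box began at positions -161, -56 and -227 relative to the gene start. Myl9 and Cnn2 rose in CAFs and Vcl did not pass the test. Acta2, Cnn1, Des and Lmod1, which also rose, held no exact match in this window. Boxes with a deviating base and boxes outside the window were not searched, so a gene without a match here may still hold a box. Tagln, Actg2 and Myh11 had no window in the table used.

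The main collagens of the stroma, types I and III, did not pass the test. Of 11 fibrillar collagens, Col2a1 of cartilage (3.84, adjusted p = 0.0373, 0.0538 to 0.122 without each of control 82/83, control 49/52, control 44/46, CAF mouse 95 and CAF mouse 23, and 0.0681 with the mouse as a replicate block) and Col24a1 (1.37, adjusted p = 0.0226, 0.0692 without control 49/52 and 0.0911 without control 44/46) were higher. Col27a1 (-1.09, adjusted p = 0.0105, 0.0506 without control 44/46) was lower, and the median log2 fold change of the list was 0.29. Col1a1, the main chain of type I collagen, stood at 14401, 9242 and 13685 CPM in NFs and 12470.0, 19246, 13114, 24002 and 20201 CPM in CAFs (log2 fold change 0.50 ± 0.32, adjusted p = 0.247). Col3a1 stood at 20039, 14026 and 18526 CPM and 13383, 19431, 11467, 17016 and 22954 CPM (log2 fold change -0.07 ± 0.30, adjusted p = 0.872). The groups overlapped at both. Col11a1, a minor fibril chain that is often high in CAFs, stood at 56.4, 2.3 and 45.7 CPM and 31.7, 318, 197, 1064 and 99.5 CPM and did not pass the test (log2 fold change 3.28 ± 1.31, adjusted p = 0.0823, 0.0235 with the mouse as a replicate block). Its spread was wide in both groups.

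Of 11 short-chain, beaded and fibril-associated collagens, 4 were higher and 1 was lower. Beside Col10a1 and Col8a1, these were Col8a2 (log2 fold change 4.50 ± 0.91, adjusted p = 0.00721) and Col12a1, a fibril-associated collagen, which rose from 547, 67.9 and 383 CPM to 2868, 8121, 2257, 8657 and 3252 CPM (log2 fold change 3.90 ± 0.81, adjusted p = 0.00821). Col6a6 was lower (log2 fold change -2.05 ± 0.34, adjusted p = 0.00318), whereas the chains Col6a1, Col6a2 and Col6a3 passed neither test (-0.02, -0.20 and 0.39). Enzymes that mature collagen were higher in 9 of 17 cases and lower in none, and in 4 cases without control 44/46. P4ha3, a prolyl hydroxylase subunit, rose from 9.66, 16.4 and 11.1 CPM to 141, 222, 192, 246 and 197 CPM (log2 fold change 4.00 ± 0.26, adjusted p = 0.000187). The crosslinking oxidases Loxl3 and Lox and the procollagen protease gene Bmp1 were higher by 2.26, 1.29 and 1.17 on the log2 scale.

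Matricellular genes, whose products sit in the matrix and act on cells, were higher in 6 of 17 cases and lower in none. Spp1, osteopontin, rose from 2.87, 8.69 and 5.05 CPM to 374, 1931, 569, 2408 and 498 CPM (log2 fold change 7.68 ± 0.98, adjusted p = 0.00121). Tnc, tenascin-C, rose from 621, 57.4 and 447 CPM to 2219.8, 5826, 2712, 3942 and 2890.0 CPM (log2 fold change 3.22 ± 0.73, adjusted p = 0.0114), with the lowest NF level in mouse 49/52. The CCN family members Ccn2, Ccn3 and Ccn5 rose by 4.51, 4.56 and 4.57 on the log2 scale. The related Ccn1 did not pass the test (-0.38). Postn, Fn1, Sparc and Thbs1 passed no test either (-0.30, 0.05, 0.56 and -0.19), and of these Sparc did with the mouse as a replicate block (adjusted p = 0.0199).

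Of 20 basement membrane genes, 8 were lower, 2 were higher and 10 passed neither test, against 16.5% of all genes lower. The chains Col4a3 and Col4a4, which pair in specialised basement membranes, were lower (-4.03 and -3.41 on the log2 scale). Lama2, a laminin chain of muscle and nerve, fell from 3411, 2829.9 and 3264 CPM to 378, 644, 369.8, 719 and 449 CPM (log2 fold change -2.64 ± 0.25, adjusted p = 0.000536). Lamb1, Lamb2 and Lamc1 were lower by smaller amounts (-0.98, -0.77 and -0.90). The 2 exceptions were laminin chains. Lama1 rose from 4.31, 0.621 and 6.2 CPM to 15, 45.5, 24.5, 52.1 and 25.9 CPM (log2 fold change 3.12 ± 0.70, adjusted p = 0.0109) and Lama5 from 7.29, 9.64 and 11.3 CPM to 38.9, 55.5, 64, 35 and 27.6 CPM (log2 fold change 2.22 ± 0.31, adjusted p = 0.00181). The common chains Col4a1 and Col4a2 passed no test (0.16 and 0.18). In the En1+ libraries alone, 4 of the genes were lower.

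Small leucine-rich proteoglycans, which bind collagen fibrils, split into 6 lower and 3 higher of 11. Kera, keratocan, fell from 24.3, 29.7 and 60.0 CPM to 2.66, 0.576, 0.55, 3.06 and 2.93 CPM (log2 fold change -4.28 ± 0.60, adjusted p = 0.00174). Lum, lumican, fell from 2451, 2195 and 2283 CPM to 593, 1061, 749.7, 531 and 1219 CPM (log2 fold change -1.49 ± 0.28, adjusted p = 0.00507). Omd and Ecm2 were lower (-2.04 and -1.66 on the log2 scale), and so were Dcn (-1.50, adjusted p = 0.069 without control 49/52) and Ogn (-1.73, adjusted p = 0.0782 without control 49/52). On the other side, Aspn, asporin, rose from 78.7, 72.1 and 43.9 CPM to 336, 278, 274, 348 and 237 CPM (log2 fold change 2.18 ± 0.24, adjusted p = 0.00075). Bgn, biglycan, was higher by 1.37 and Fmod by 3.57 (adjusted p = 0.0839 without control 82/83, 0.069 without control 49/52 and 0.094 without control 44/46).

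Matrix metalloproteinases were higher in 5 of 15 cases, 3 without control 44/46, and lower in 1. Mmp10, a stromelysin, rose from 0.359, 0 and 0.066 CPM to 32.2, 38.1, 49.2, 31.9 and 57.7 CPM (log2 fold change 8.15 ± 0.66, adjusted p = 0.000386). Mmp9, a gelatinase, rose from 0.323, 0.438 and 0.594 CPM to 18.3, 91.1, 215, 50.8 and 105 CPM (log2 fold change 7.70 ± 0.96, adjusted p = 0.00112, 0.0599 with the mouse as a replicate block). Together with Mmp13 these had the largest log2 fold changes of the 15 members. Mmp16, a membrane-type protease, fell by 2.71 on the log2 scale. Mmp2, Mmp3, Mmp11 and Mmp14, the proteases best known from stroma, passed no test (-0.49, 0.17, -0.10 and -0.07).

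**Figure D3:**
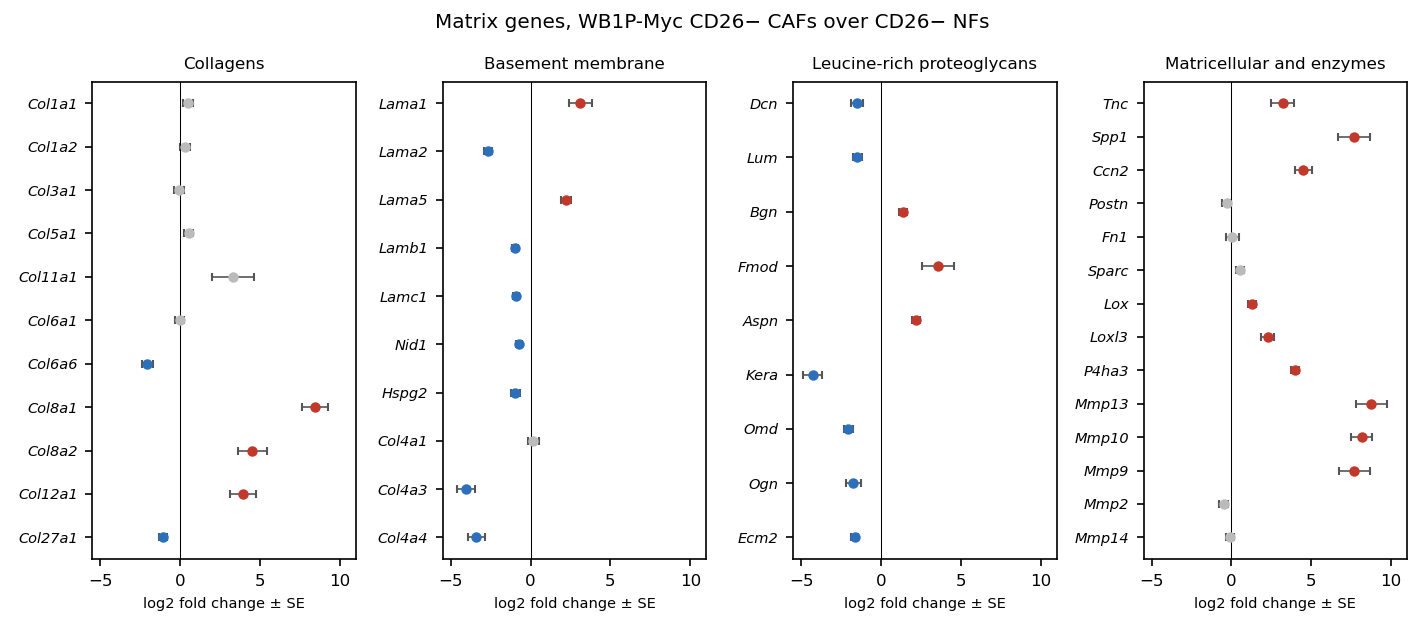
Log2 fold change with its SE (x axis) of matrix genes in WB1P-Myc CD26− CAFs over CD26− NFs, in 4 groups of genes (panels). Red points were higher and blue points lower at an adjusted p under 0.05, and grey points passed neither test. Col8a1, Spp1, Mmp13, Mmp10 and Mmp9 lie farthest to the right, and Col1a1, Col3a1, Postn and Fn1 lie near 0.

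Among genes of TGF-beta and activin signaling, 7 of 20 were higher and 1 was lower. Of the ligands, Inhba, the subunit of activin A, rose from 12.3, 4.42 and 2.64 CPM to 128, 216, 372, 591 and 194 CPM (log2 fold change 5.53 ± 0.77, adjusted p = 0.00175). Inhbb rose by 3.31, Tgfb2 by 2.20 and Tgfb3 by 1.52 on the log2 scale. Tgfb1 was higher by 1.54 (adjusted p = 0.069 without control 49/52 and 0.0753 without control 44/46). Ltbp2, which lies with fibrillin in the matrix, rose from 2.87, 4.2 and 3.2 CPM to 84.6, 535, 724, 995 and 269 CPM (log2 fold change 7.24 ± 0.91, adjusted p = 0.00115). The receptors Tgfbr1 and Tgfbr2 passed no test (-0.52 and 0.35, adjusted p = 0.048 for Tgfbr1 with the mouse as a replicate block). The co-receptor Tgfbr3 was lower (-1.59, adjusted p = 0.0507 without control 44/46).

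Of 17 BMP ligands and antagonists, 2 were higher and 1 was lower. Grem1, a secreted BMP antagonist, rose from 0.359, 0.84 and 0.264 CPM to 5.11, 34.2, 36.5, 5.01 and 41.5 CPM (log2 fold change 5.62 ± 1.01, adjusted p = 0.00448), with lower levels in mice 21 and 23 than in the other CAF mice. Bmp7, a ligand, fell from 139, 29.2 and 93.2 CPM to 2.16, 0.61, 8.25, 7.53 and 2.83 CPM (log2 fold change -4.36 ± 0.77, adjusted p = 0.00414). The CAF and NF mice did not overlap at either gene, which is no further result, since both were named for large changes that passed the test.

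Of 20 Wnt genes, 8 were higher, 5 without control 82/83 or 44/46, and 3 were lower. The ligands split, as Wnt9a was higher (1.56 on the log2 scale) and Wnt6 lower (-2.35). Wnt2, a ligand of progenitor-like fibroblasts, fell from 61.6, 22.1 and 55.4 CPM to 18.4, 6.34, 16.6, 9.52 and 11.7 CPM (log2 fold change -1.90 ± 0.41, adjusted p = 0.00925). Of the inhibitors and feedback genes, 5 rose by the following log2 amounts, Sfrp1 (1.21), Sfrp2 (1.51), Sfrp4 (2.84, adjusted p = 0.0503 without control 82/83 and 0.0626 without control 44/46), Dkk2 (1.57) and Nkd2 (1.54). Axin2, a common target of canonical Wnt signaling, was lower (-1.14, adjusted p = 0.0532 to 0.127 without each of control 49/52, control 44/46, CAF mouse 95 and CAF mouse 69). Lef1, another target, was higher (3.60, adjusted p = 0.0583 without control 82/83, 0.0656 without control 49/52 and 0.0801 without control 44/46).

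The Notch list had 4 of 13 members higher and 1 lower. The target gene Nrarp rose from 0.467, 1.64 and 1.58 CPM to 53.7, 15.7, 48.3, 30.5 and 24.2 CPM (log2 fold change 4.80 ± 0.61, adjusted p = 0.00119). Hey2, another target, rose from 0.251, 0.511 and 0.33 CPM to 14.9, 7.19, 6.81, 4.17 and 9.29 CPM (log2 fold change 4.51 ± 0.52, adjusted p = 0.000851). Of the receptors, Notch3 and Notch4 were higher (2.64 and 2.83), Notch2 was lower (-1.56) and Notch1 passed no test (-0.58). Notch3 also counts among the pericyte markers, and the ligands Jag1, Jag2, Dll1 and Dll4 passed no test.

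Growth factor genes were higher in 6 of 24 cases and lower in 4, with 3 higher without control 82/83 or 44/46, 1 lower without 82/83 and 2 lower without 44/46. Of the ligands of the PDGF receptors, Pdgfa, Pdgfb and Pdgfc rose and Pdgfd passed no test (-0.27 on the log2 scale). The call of Pdgfb (3.98) was lost when any 1 of the 3 controls was left out (adjusted p = 0.0706 without control 82/83, 0.0672 without control 49/52 and 0.0711 without control 44/46), and with the mouse as a replicate block (adjusted p = 0.166). Pdgfa went from 2.41, 2.48 and 2.37 CPM to 90.6, 49.1, 119, 60.5 and 27.7 CPM (log2 fold change 4.84 ± 0.53, adjusted p = 0.000721) and Pdgfc from 0.718, 1.93 and 1.42 CPM to 16.5, 21.4, 30.2, 22.6 and 24.1 CPM (log2 fold change 4.06 ± 0.36, adjusted p = 0.000439). Their receptor gene Pdgfra was lower (-1.37, adjusted p = 0.0644 to 0.0987 without each of control 82/83, control 49/52, control 44/46, CAF mouse 21, CAF mouse 95 and CAF mouse 23), and Pdgfrb passed no test (0.43). Nrg1, a ligand of ERBB receptors, rose from 1.97, 1.35 and 1.65 CPM to 13.8, 28.6, 26.5, 30.2 and 35.9 CPM (log2 fold change 4.01 ± 0.33, adjusted p = 0.000386). Fgfr2 fell by 1.25 on the log2 scale. Hgf, the ligand of MET, was lower (-1.18, adjusted p = 0.0762 without control 82/83 and 0.0671 without control 44/46). Fgf7, Fgf10, Igf1 and Vegfa passed no test, except Fgf10 with the mouse as a replicate block (adjusted p = 0.0482). Of 6 IGF-binding proteins, 3 were higher and 1 lower, and Igfbp7 was higher by 1.15.

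Genes by which mammary stroma responds to hormones and retinoids were lower in 8 of 20 cases, 5 without control 49/52 and 3 without 44/46, and higher in 2. Thrb, a thyroid hormone receptor, fell by 2.05 on the log2 scale. The estrogen, prolactin and glucocorticoid receptor genes Esr1 (-0.97, adjusted p = 0.0592 to 0.165 without each of control 82/83, control 49/52, control 44/46, CAF mouse 21, CAF mouse 67, CAF mouse 95 and CAF mouse 23), Prlr (-1.81, adjusted p = 0.0553 without control 49/52 and 0.0509 without control 44/46) and Nr3c1 (-0.73, adjusted p = 0.0564 without control 49/52 and 0.0611 without control 44/46) were lower. The retinaldehyde dehydrogenases, which make retinoic acid, moved apart. Aldh1a1 fell from 68.6, 62.2 and 78.1 CPM to 1.51, 5.87, 6.81, 6.15 and 6.69 CPM (log2 fold change -3.69 ± 0.37, adjusted p = 0.00058), and Aldh1a2 rose from 1.83, 5.84 and 0.891 CPM to 59.6, 168, 79.2, 169.9 and 27.6 CPM (log2 fold change 5.13 ± 0.88, adjusted p = 0.00375).

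Secreted immune signals rose in part. Of 21 cytokine and acute-phase genes, 11 were higher and none was lower. Of these, 6 were higher without control 82/83, 5 without 44/46 and 7 with the mouse as a replicate block. Saa3, an acute-phase apolipoprotein, rose from 0.79, 0.511 and 0.594 CPM to 6.77, 22.9, 34, 33.2 and 51.4 CPM (log2 fold change 5.53 ± 0.68, adjusted p = 0.00108). Hp, haptoglobin, rose from 0.862, 2.19 and 1.72 CPM to 23.5, 22.2, 8.94, 33.6 and 35.7 CPM (log2 fold change 3.95 ± 0.52, adjusted p = 0.00142), and Il33, an alarmin, from 25.6, 45 and 10.8 CPM to 170.1, 336, 461, 219 and 363 CPM (log2 fold change 3.50 ± 0.54, adjusted p = 0.00242). All CAF mice lay above all NF mice at these 3 genes, which were named for large changes that passed the test, so their separation is no further result. Lif, a ligand of the gp130 family, rose from 33, 27.2 and 16.3 CPM to 230.2, 64.4, 280.4, 166 and 184 CPM (log2 fold change 2.86 ± 0.49, adjusted p = 0.00374). Il6 and Il11 of that family passed no test (0.81 and 0.82).

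Chemokine genes were higher in 5 of 15 cases, but in 2 without control 82/83 or 44/46 or CAF mouse 95 or 69, and in 3 without control 49/52. The neutrophil chemoattractant Cxcl2 rose from 36.1, 33.5 and 16.1 CPM to 116, 68.1, 262, 81.7 and 237 CPM (log2 fold change 2.41 ± 0.55, adjusted p = 0.0115). Cxcl14 rose from 317, 453 and 239 CPM to 660.5, 1625, 1022, 1159.6 and 1519 CPM (log2 fold change 1.81 ± 0.34, adjusted p = 0.00508). Cxcl12, Ccl2 and Cxcl1 passed no test (0.51, 0.91 and 0.58), and their CAF and NF values overlapped. Among complement genes 5 of 17 were higher, but none without control 82/83 or 44/46, 3 without CAF mouse 21 or 67, 1 without 95, 2 without 69 and 3 with the mouse as a replicate block. They included C1qb and C1qc, which macrophages make. Their calls were lost when any 1 of the 3 controls was left out (for C1qb, adjusted p = 0.0693 without control 82/83, 0.0673 without control 49/52 and 0.0581 without control 44/46 and for C1qc, adjusted p = 0.0549 to 0.0953 without each of control 82/83, control 49/52, control 44/46 and CAF mouse 95), and with the block (adjusted p = 0.126 and 0.169). The macrophage gene Csf1r stood at 1.9, 1.97 and 2.9 CPM in NFs and 20.4, 4.92, 16, 12.8 and 10.2 CPM in CAFs (log2 fold change 2.50 ± 0.47, adjusted p = 0.00521). Cfd, adipsin, which is also an adipocyte marker, was lower (-3.58). The part of immune cells was not tested.

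Interferon-stimulated genes divided the CAF mice. By the test, 9 of 17 were higher in CAFs and none was lower. The count was 2 without control 82/83, 0 without 44/46, 5 without CAF mouse 95, 1 without the mice marked 8x8 and 4 with the mouse as a replicate block. The mean log2 level of the list over that of the NFs was 2.76 in mouse 95, 2.17 in mouse 23 and 3.49 in mouse 69, and 0.476 in mouse 21 and 0.435 in mouse 67, while control 49/52 stood at 0.915. Ifi44 stood at 0.287, 0.584 and 0.297 CPM in NFs and 2.3, 2.61, 42.4, 25 and 66.6 CPM in CAFs (log2 fold change 6.13 ± 1.39, adjusted p = 0.0112, adjusted p = 0.0508 without control 44/46, and 0.171 with the block). Isg15, a ubiquitin-like protein gene, stood at 7.25, 21.5 and 4.88 CPM and 18.3, 14.4, 108, 85.5 and 153 CPM (log2 fold change 2.74 ± 0.91, adjusted p = 0.0453, adjusted p = 0.0671 to 0.143 without each of control 82/83, control 44/46, CAF mouse 95, CAF mouse 23 and CAF mouse 69). In mice 21 and 67 Isg15 stood below the level of control 49/52.

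Of 14 antigen presentation genes, 5 were higher, a count that was 0 without control 82/83, 8 without 49/52, 2 without 44/46 and 1 without CAF mouse 95, 23 or 69. H2-Ab1, a class II chain, stood at 1.44, 3.29 and 3.5 CPM in NFs and 18.5, 4.58, 32.5, 19.3 and 10.5 CPM in CAFs (log2 fold change 2.63 ± 0.64, adjusted p = 0.0148, adjusted p = 0.0523 without control 82/83). The class I genes B2m, H2-K1 and H2-D1 passed no test (0.99, 0.79 and 0.95), although B2m did with the mouse as a replicate block (adjusted p = 0.0193).

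**Figure D4:**
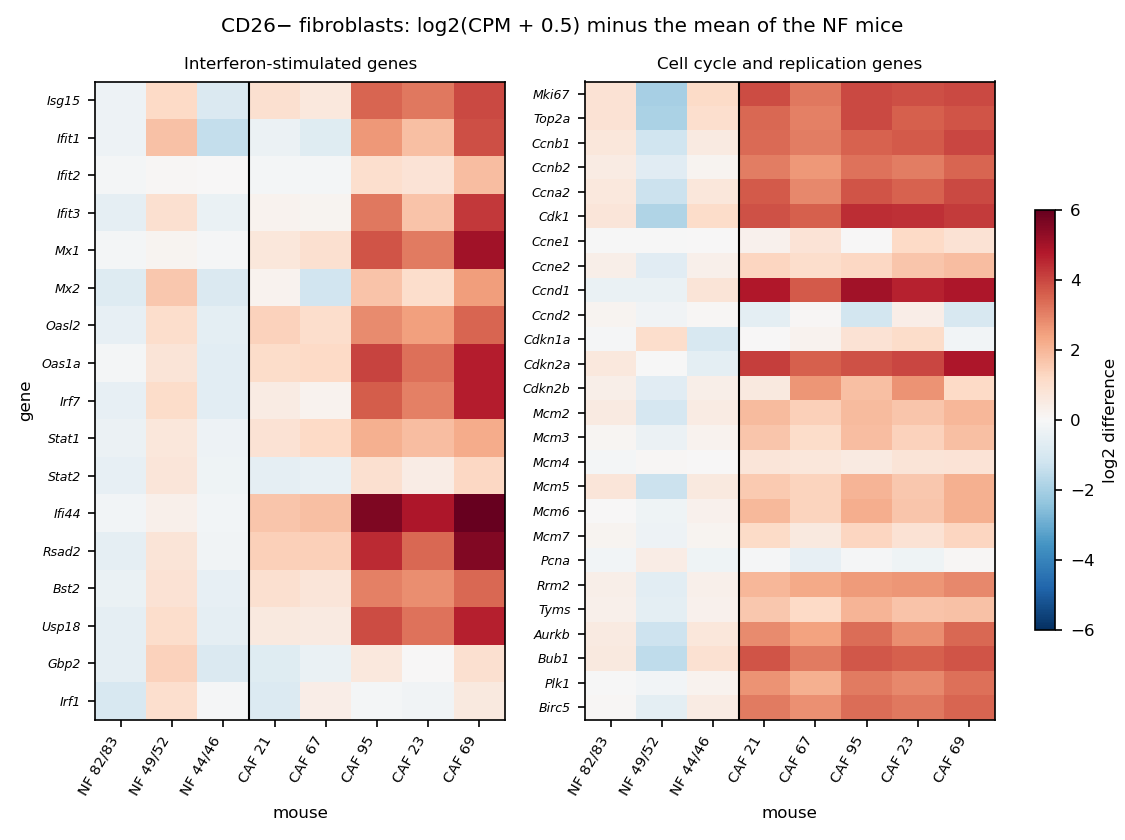
Log2(CPM + 0.5) minus the mean of the 3 NF mice (color, from −6 to 6) of interferon-stimulated genes (left) and of cell cycle and replication genes (right), with a row for each gene and a column for each CD26− mouse sum. Most interferon-stimulated genes are high in CAF mice 95, 23 and 69 and lower in 21 and 67, while most cell cycle genes are high in all 5.

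Most cell cycle genes were higher in all CAF mice. Of 26 tested, 22 were higher and none was lower, with a median log2 fold change of 2.28. The mean log2 level of the list over that of the NFs was 1.93 to 2.49 in the 5 CAF mice. Mki67, a protein of cycling cells, rose from 14.8, 1.61 and 17.8 CPM to 127, 74.1, 129, 124 and 131 CPM (log2 fold change 3.35 ± 0.67, adjusted p = 0.00684). Cdk1, the mitotic kinase, rose from 3.45, 0.183 and 4.62 CPM to 33.5, 28, 51, 48.9 and 43.6 CPM (log2 fold change 3.89 ± 0.75, adjusted p = 0.00594). Ccnd1, cyclin D1, rose from 2.55, 2.52 and 6.4 CPM to 113, 50.3, 132, 98.6 and 113 CPM (log2 fold change 4.72 ± 0.48, adjusted p = 0.0006). The groups were apart at all 3, which is no further result, since they were named for large changes that passed the test. Mouse 49/52 had the lowest NF level of Mki67 and Cdk1. Cdkn2a, which encodes the inhibitors p16 and p19, rose as well, from 1.83, 0.986 and 0.528 CPM to 26.9, 17.6, 20.8, 24.5 and 43.7 CPM (log2 fold change 4.57 ± 0.49, adjusted p = 0.000674, 0.126 with the mouse as a replicate block), while Cdkn1a (p21) passed no test (0.25).

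The genes altered in the transplanted epithelium were read in the sorted fibroblasts as well. Myc stood at 416, 677 and 343 CPM in NFs and 283, 274, 344, 278 and 455 CPM in CAFs (log2 fold change -0.56 ± 0.26, adjusted p = 0.121), and Trp53 passed no test either (-0.21). Brca1, which is also induced in cycling cells, was higher by 2.02 on the log2 scale (adjusted p = 0.0189).

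Of 22 glycolysis and hypoxia genes, 14 were higher and none was lower. The enzymes Eno1, Pkm, Pgk1, Pfkl, Gapdh and Tpi1 were higher by 1.79, 1.76, 1.52, 1.43, 1.42 and 1.21 on the log2 scale. Slc16a3, the lactate exporter, rose from 24.7, 14.6 and 15.9 CPM to 60.1, 57.8, 112, 98.7 and 43.8 CPM (log2 fold change 2.01 ± 0.36, adjusted p = 0.00441). Egln3, an oxygen sensor gene induced in hypoxia, rose from 0.826, 0.876 and 1.22 CPM to 8.2, 7.43, 30.8, 18.2 and 7.29 CPM (log2 fold change 3.87 ± 0.63, adjusted p = 0.00302, 0.061 with the mouse as a replicate block). Vegfa, Adm and Ndrg1, further hypoxia genes, passed no test (0.05, 0.21 and 0.13). Genes of protein folding in the endoplasmic reticulum were higher in 2 of 22 cases and lower in 2, among them Dnajb9 (-1.04) and Atf4 (-0.78).

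Lipid genes gave 1 higher and 4 lower of 19, with 1 lower without control 49/52, 2 without 44/46 and 8 without CAF mouse 67. Fabp5, a fatty acid carrier, rose from 3.81, 4.86 and 4.75 CPM to 39, 25.8, 39.6, 27.4 and 26.7 CPM (log2 fold change 2.82 ± 0.23, adjusted p = 0.000386). Apoe and Lpl, which handle lipoproteins, were lower, Apoe (-2.27, adjusted p = 0.131 without control 49/52) and Lpl (-1.65, adjusted p = 0.0549 without control 82/83, 0.0725 without control 49/52 and 0.0547 without control 44/46). Pparg and Cebpa, the regulators of fat cell formation, passed no test (-1.18 and -0.56), except Pparg with the mouse as a replicate block (adjusted p = 0.0168). Of the adipocyte markers, Adipoq, Plin1 and Fabp4 passed no test.

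Genes of adventitial and progenitor-like fibroblasts were higher in 2 of 15 cases and lower in 3. Scara5, a ferritin receptor of this population, fell from 203, 766 and 329 CPM to 23.2, 112, 86.2, 24.3 and 91 CPM (log2 fold change -2.71 ± 0.61, adjusted p = 0.011). Cd248, endosialin, rose from 269, 334 and 264 CPM to 879.8, 862, 615, 1027 and 681 CPM (log2 fold change 1.48 ± 0.21, adjusted p = 0.00195). Pi16, Dpt and Ly6a passed no test (-0.03, -0.70 and 1.45), except Ly6a with the mouse as a replicate block (adjusted p = 0.0408). Among mesenchymal transcription factors, 3 of 24 were higher and 4 lower, and 1 was lower without control 44/46. Runx1 rose from 15.7, 22.3 and 12.5 CPM to 205, 285, 178, 288 and 177 CPM (log2 fold change 3.74 ± 0.29, adjusted p = 0.000367). Tcf4 fell from 686, 368 and 773 CPM to 195, 230.4, 157, 190.4 and 145 CPM (log2 fold change -1.74 ± 0.25, adjusted p = 0.00188). Twist1 and Zeb1, known from epithelial-to-mesenchymal transition, were lower, Twist1 (-0.69, adjusted p = 0.0592 without control 44/46) and Zeb1 (-0.82, adjusted p = 0.0826 without control 44/46).

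Integrin subunits, the receptors for matrix, were higher in 5 of 15 cases and lower in 1. Itga1, which binds collagen and laminin, rose from 19.9, 21.3 and 30.1 CPM to 723, 395, 391, 758 and 175 CPM (log2 fold change 4.36 ± 0.54, adjusted p = 0.00112). Itga4 rose from 0.718, 0.438 and 0.363 CPM to 19.3, 9.22, 20.9, 5.08 and 10.8 CPM (log2 fold change 4.67 ± 0.59, adjusted p = 0.00119). The laminin receptor Itga7 and the common chain Itgb1 rose by 2.87 and 0.90 on the log2 scale. Itga8 fell from 125, 91.3 and 127 CPM to 13, 20.3, 12.6, 33.1 and 8.08 CPM (log2 fold change -2.72 ± 0.39, adjusted p = 0.00197). Itga11, the collagen receptor of many CAFs, passed no test (0.36).

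The En1+ and the -/- cells gave the same directions. Of 1454 genes called over 4-fold, 1038 could be tested in each sort by itself, and all 1038 had the same sign in both. The median gap between the log2 fold changes was 0.378, and the gap was over 1 at 141 genes. The genes were called on the sum of both sorts, and the 2 sorts share their mice, so this compares cell fractions and is no second experiment. Acta2 gave 3.64 in -/- cells and 3.50 in En1+ cells, Rgs5 6.22 and 5.62, Col8a1 8.43 and 8.82, and Mki67 3.40 and 3.20 on the log2 scale. Mice 21 and 95 have the -/- library alone. En1 itself was low in all CD26− mice, with 5.67, 8.25 and 6.53 CPM in NFs and 5.9, 7.26, 8.67, 11.2 and 12.9 CPM in CAFs (log2 fold change 0.42 ± 0.27, adjusted p = 0.259).

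Few genes passed edgeR's test between CD26− CAFs of the WB1P-Myc model and those of the WB1P model, which lacks the Myc transgene. Between 5 mice of each, edgeR's quasi-likelihood test called 0 of 14611 genes (0%) higher and 1 gene (0.00684%) lower in WB1P-Myc over 4-fold. At any fold change 1 was higher (0.00684%) and 5 were lower (0.0342%), and 2524 genes had an unadjusted p under 0.05. DESeq2 called 195 higher and 408 lower at any fold change, 18 and 38 of them over 4-fold. Without CAF mouse 23, edgeR called 26 higher and 48 lower at any fold change, 8 and 8 of them over 4-fold. No gene passed at any fold change without WB1P mouse 12, 14 or 35 or CAF mouse 67 or 69. A gene that misses the threshold is not shown to be alike in both. Agtr1a, an angiotensin receptor gene, stood at 47, 41.5, 29.6, 29.5 and 44.5 CPM in WB1P-Myc mice and at 8.38 to 15.3 CPM in WB1P mice (1.59 ± 0.19, adjusted p = 0.0431). Egln1, an oxygen sensor gene, stood at 53.5, 65.2, 56.1, 64.3 and 59.9 CPM and at 83.5 to 128 CPM (-0.80 ± 0.11, adjusted p = 0.0431). Rtn4rl2, Vwa1 and Tll1 were lower (log2 fold changes -1.34 ± 0.18, -1.76 ± 0.24 and -1.83 ± 0.24), each at an adjusted p of 0.0431. Mgarp, a mitochondrial transport gene named after its value was seen, was the gene lower over 4-fold (-2.01 ± 0.27). No contractile, pericyte or interferon gene of the lists was called here. Vwa1 was also lower and Rtn4rl2 higher in WB1P-Myc CAFs than in NFs (-2.17 and 3.64).

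Against the same 3 NF mice, WB1P CAFs had 6.39% of genes higher and 4.34% lower over 4-fold. Log2 fold changes over NFs in WB1P-Myc and WB1P stood at 3.59 and 3.86 for Acta2, 6.21 and 5.20 for Rgs5, 8.44 and 9.31 for Col8a1, 5.53 and 7.37 for Inhba and 3.35 and 2.80 for Mki67. Both columns rest on the shared NFs and are given side by side only.

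The change from NF to CAF was then set against that of CD26+ fibroblasts of the same mice, by a test of the difference between both changes. Of 16078 genes, 75 (0.466%) had a more positive change in CD26− than in CD26+ fibroblasts and 13 (0.0809%) a more negative one by over 2 on the log2 scale. At any size these shares were 0.516% and 0.149%. In CD26+ fibroblasts by themselves, 3.38% of genes were higher and 2.85% lower in CAFs over 4-fold. Each mouse gave both sums, which this test took as independent. With the mouse as a replicate block the counts were 163 and 44. The total of 88 genes was 22 without control 82/83, 41 without 49/52, 8 without 44/46 and 52 without CAF mouse 21, so that leaving out any NF mouse changed it by over 1.5 times. These fits, and all fits of this difference without a mouse given below, did not use the block. How far the calls of the blocked fit depend on 1 mouse was not tested. Adjusted p-values of this difference come from the test without the block unless the block is named.

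Vessel-wall and smooth muscle genes were among the more positive changes. Rgs5 stood at 4.36 to 7.79 CPM in CD26+ NFs and at 2.23 to 11.1 CPM in CD26+ CAFs. Its changes differed by 6.20 ± 0.74 on the log2 scale (adjusted p = 0.00209, 0.00134 with the block). Myh11 stood at 4.06 to 7.44 CPM in CD26+ NFs and at 0.223 to 0.833 CPM in CD26+ CAFs. It fell there (log2 fold change -3.54 ± 0.38, adjusted p = 0.000639) and rose in CD26− cells, a difference of 6.26 ± 0.64 (adjusted p = 0.00112, 0.00168 with the block). Emcn, Esam, Mcam and Notch3 differed by 5.96 ± 0.76, 5.16 ± 0.64, 4.49 ± 0.83 and 4.37 ± 0.70 (adjusted p = 0.00239, 0.00239, 0.0188 and 0.00918). The Notch targets Hey2 and Nrarp differed by 4.53 ± 0.72 and 5.07 ± 1.04 (adjusted p = 0.00918 and 0.0378). When any 1 mouse was left out, the adjusted p was at most 0.0375 for Rgs5, 0.025 for Myh11, 0.0462 for Emcn and 0.049 for Esam. The calls of Notch3 and Hey2 were lost without control 82/83 or 44/46 (adjusted p up to 0.137 and 0.163), and those of Mcam and Nrarp in 6 of the 8 such fits (up to 0.167 and 0.198).

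The test called further members of the lists, namely Itga1 (3.53 ± 0.51, adjusted p = 0.00515), Lama5 (3.21 ± 0.60, 0.0215), Pdgfc (2.95 ± 0.51, 0.0153), Tgfb2 (2.62 ± 0.53, 0.0357), Myl9 (2.04 ± 0.31, 0.00644) and Wnt5a (1.92 ± 0.34, 0.0188). Lox was the list member with a more negative change (-1.86 ± 0.38, adjusted p = 0.0357), with a log2 fold change of 3.14 in CD26+ CAFs and of 1.29 in CD26− CAFs. With the block, Cspg4, Des, Lmod1, Itga7, Ccnd1, Aldh1a1 and Wnt2 also passed, with differences of 3.23, 3.78, 3.87, 3.27, 2.89, -3.14 and -2.14 and adjusted p-values of 0.0188, 0.0173, 0.036, 0.00776, 0.0177, 0.0264 and 0.0262. When 1 mouse was left out, the calls of Itga1 and Myl9 were lost for controls 82/83 and 44/46 (adjusted p up to 0.0744 and 0.106), that of Pdgfc for control 44/46 (0.135), those of Lama5 and Tgfb2 in 5 of 8 fits (up to 0.167 and 0.21) and those of Wnt5a and Lox in 6 (up to 0.172 and 0.175). Acta2 did not pass in either fit (1.40 ± 0.87, adjusted p = 0.69, 0.434 with the block). It stood at 4.17 to 71.9 CPM in CD26+ NFs and 116 to 248 CPM in CD26+ CAFs.

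By fitted size alone, the more positive changes were led by Tbx20, Adamts16, Stum, Olfr558 and Pkd1l2, and the more negative by Kcnn3, Aqp1, Pamr1, Hlf and Prex1. Adamts16, a secreted metalloproteinase gene, stood at 0.215, 0.11 and 0.066 CPM in CD26− NFs and 18.2, 102, 15.5, 55.5 and 22.3 CPM in CD26− CAFs. It stood at 17.4 to 77.6 CPM in CD26+ NFs and 17.3 to 67.3 CPM in CD26+ CAFs, a difference of 8.46 ± 1.16 (adjusted p = 0.00335). Tbx20 had no read in any CD26− NF, so its fitted difference is not a measured size and its place in this order is not established. Tbx20, Stum and Olfr558 stood at no more than 0.26 CPM in any CD26+ mouse. Pkd1l2 stood at or under 0.373 CPM in all CD26− mice and at 3.33 to 36.5 CPM in CD26+ NFs and 0.231 to 1.86 CPM in CD26+ CAFs (log2 fold change -4.63 ± 0.79, adjusted p = 0.00332). Aqp1, a water channel gene, fell in CD26− cells from 529, 177 and 307 CPM to 44.7, 13, 64, 14.8 and 44.4 CPM. It stood at 21.2 to 54.2 CPM in CD26+ NFs and 34 to 58.7 CPM in CD26+ CAFs, a difference of -3.69 ± 0.72 (adjusted p = 0.0259). Pamr1, Hlf, Prex1 and Kcnn3 differed by -2.91 ± 0.47, -2.15 ± 0.46, -1.998 ± 0.36 and -3.98 ± 0.73 (adjusted p = 0.00918, 0.0445, 0.0188 and 0.0188). The calls of Adamts16 and Stum were lost without control 44/46 (adjusted p = 0.0891 and 0.165), those of Tbx20 and Olfr558 when any 1 of the 3 controls was left out (up to 0.172 and 0.201) and that of Pamr1 without 49/52 or 44/46 (up to 0.106). Those of Kcnn3, Prex1, Aqp1, Hlf and Pkd1l2 were lost in 3, 4, 5, 7 and 7 of the 8 fits (up to 0.171, 0.178, 0.196, 0.232 and 0.255), and all values kept their sign.

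**Figure D5:**
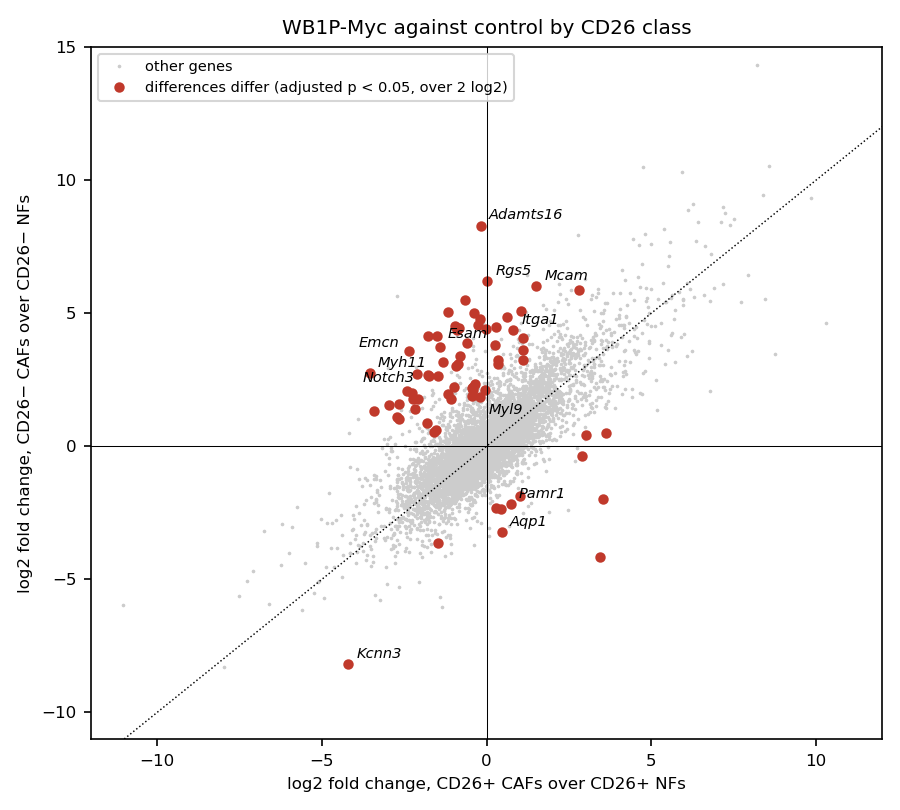
Log2 fold change of WB1P-Myc CAFs over NFs in CD26+ fibroblasts (x axis) and in CD26− fibroblasts (y axis) for 14414 genes tested in both, with the dotted line at equal change. The 72 red genes passed the test of the difference at an adjusted p under 0.05 and over 2 on the log2 scale. Rgs5, Myh11, Emcn and Adamts16 lie above the line and Kcnn3, Aqp1 and Pamr1 below it.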

How the data were processed

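RNA of sorted mouse fibroblasts was sequenced as stranded TruSeq mRNA libraries, paired-end, on an Illumina NovaSeq. The authors deposited raw read counts per gene, in a table of 55486 genes and 44 libraries with 1 further line that names no gene and holds 0 counts. The submitters' processing notes name HISAT2 2.2.1 and GRCm38; the counter and the annotation release are not given in the sources used here. Groups, mice and sorts came from the labels, and counts of the CD26− libraries of a mouse were added.

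Genes were filtered with filterByExpr, scaled by TMM and tested with edgeR 4.0.16 (quasi-likelihood, Benjamini-Hochberg over all genes tested) in R 4.3.3, on 8 sums for CAFs against NFs, 10 sums for WB1P-Myc against WB1P and 16 sums for the difference between the CD26− and CD26+ changes. A call over 4-fold used the limits of the methods, which used DESeq2. Intervals cover counting error only, since reads carry no molecular identifiers, and p-values measure only the spread between these mice. Alternatives were DESeq2 1.42.0, its size factors with edgeR, no low-count filter, all groups in 1 fit, single sorts, other sets of mice, each mouse left out and the mouse as a replicate block (limma 3.58.1). The mice of the CD26− and CD26+ sums are the same by their labels, and their deviations from the group means correlated (0.295 to 0.71 within a mouse, at most 0.13 with another mouse). On counts simulated for CAFs against NFs over 15190 genes, 16.9%, 79% and 96.9% of log2 changes of 1, 2 and 3 were recovered. For WB1P-Myc against WB1P (14292 genes) these shares were 62.3%, 95.3% and 93.7%, and for the difference of changes (15642 genes) 12.3%, 66.7% and 79.7%. Each gene and each sum was simulated independently, without spread shared between genes or between the CD26− and CD26+ sums of a mouse. The real data hold such spread, which can make the shares too high for them. For CAFs against NFs, 65, 62 and 64 genes were changed by 1, 2 and 3, while 17.3% of the real genes were higher and 16.5% lower. The Benjamini-Hochberg limit depends on how many genes change, which can make the shares too low for this comparison. The shares therefore do not measure recovery in the real data and do not show that WB1P-Myc and WB1P CAFs are alike.

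Named genes were Dpp4, En1, list members (mostly those with the largest changes or with the other direction) and the 12 genes per direction with the largest changes. The last had to have no overlap between the groups and a mean of 10 CPM or more in the group with the higher level. The other 2 tests gave the 5 largest per direction. The comparison, the lists and the rule were chosen with earlier results of these data known. The other libraries of the series were used here only for the WB1P and CD26+ values and the scaling.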

Additional observations from a re-analysis of the deposited data

Results flagged for a closer look

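In the CAF group, 1 of the 5 mice lay far from the others at 12 of the 242 genes looked at, by a gap of over 0.71 of the range of the group. Chance alone gives such a gap in about 1 of 20 groups, which is about the share found here. The genes are therefore listed as values only. Mouse 21 was the mouse in question at 6 genes. Its level was 1.51 CPM of Aldh1a1 against 5.87 to 6.81 CPM in the other CAF mice, 16.5 CPM of Dkk2 against 28.8 to 34.9 CPM, 6.48 CPM of Fgfr2 against 10.2 to 12.0 CPM, and 2.16 CPM of Tll1 against 5.19 to 6.34 CPM. It was also higher in muscle genes, with 1.51 CPM of Atp2a1 against 0.034 to 0.186 CPM and 1.01 CPM of Ckm against 0 CPM. Mouse 67 was low in Mki67, with 74.1 CPM against 124 to 131 CPM, and in the endothelial gene Pecam1, with 1.42 CPM against 4.61 to 6.62 CPM. Mouse 23 was low in Sfrp4, with 45.7 CPM against 177 to 288 CPM. It had 0.344 CPM of Hs3st6 and 0.535 CPM of Unc80 against at most 0.072 CPM of each in the other CAF mice, and mouse 95 had 81.6 CPM of Trp53 against 68.1 to 70.1 CPM.

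The change from NF to CAF differed between CD26− and CD26+ fibroblasts, by the test of that difference, at 25 named genes. It was more positive in CD26− fibroblasts for the vessel-wall and contractile genes Rgs5 (6.20 on the log2 scale), Myh11 (6.26), Emcn (5.96), Esam (5.16), Mcam (4.49), Notch3 (4.37) and Myl9 (2.04), the Notch targets Nrarp (5.07) and Hey2 (4.53), the matrix and adhesion genes Adamts16 (8.46), Itga1 (3.53) and Lama5 (3.21), and the ligand genes Pdgfc (2.95), Tgfb2 (2.62) and Wnt5a (1.92). The other genes of this direction were Stum (8.16), Olfr558 (7.69), Pkd1l2 (6.33) and Tbx20, whose fitted value of 11.5 is not a measured size, since it had no read in any CD26− NF. Pkd1l2 stood low in all CD26− mice and fell in CD26+ cells. The change was more negative for Kcnn3 (-3.98), Aqp1 (-3.69), Pamr1 (-2.91), Hlf (-2.15), Prex1 (-1.998) and Lox (-1.86). Of the 25 genes, only Rgs5, Myh11, Emcn and Esam kept the call in all 8 fits without a mouse, which did not use the block. Between the tumor models, CD26− CAFs of WB1P-Myc differed from those of WB1P at Agtr1a (1.59), Egln1 (-0.80), Rtn4rl2 (-1.34), Vwa1 (-1.76) and Tll1 (-1.83).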

How the results depend on the processing

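The counts of genes higher and lower in CD26− CAFs over 4-fold (953 and 501) were 608 and 301 in the En1+ libraries alone, with 3 mice a group, and 613 and 421 with the mouse as a replicate block. They ran from 695 to 1140 higher and from 426 to 728 lower in the 7 other alternatives (931 and 514 with size factors, 1063 and 513 with DESeq2, 1056 and 728 without a filter), and from 693 to 1023 higher and 438 to 517 lower without 1 mouse. Members of the lists numbered 178 higher and 62 lower, 28 lower in the En1+ libraries alone, and 111 to 182 higher and 43 to 65 lower without 1 mouse. Between WB1P-Myc and WB1P, with 0 higher and 1 lower over 4-fold, DESeq2 gave 18 and 38, the -/- libraries alone gave 0 lower, leaving out the mice marked 8x8 gave 0 lower, and leaving out 1 mouse gave 0 to 8 higher and 0 to 8 lower, with 8 and 8 without CAF mouse 23. The 88 genes whose change differed between CD26− and CD26+ fibroblasts were 207 with the mouse as a replicate block, 256 with DESeq2, 120 without a filter, and 8 to 112 without 1 mouse, with 22, 41 and 8 without controls 82/83, 49/52 and 44/46. The causes were not tested.

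Of the values of named genes, 205 passed the test and kept their sign in every alternative that could be computed, and 132 of them kept the call in all of these. The genes whose call the pairing changed carry the blocked value beside them, except Egln1, which passed with the block (adjusted p = 0.0155). A change of sign arose at 23 genes that did not pass the test, with an adjusted p of at least 0.379 in each such fit. Their log2 fold changes without 1 mouse ran as follows: Adipoq (-0.907 to 0.878), Adm (-0.033 to 0.508), Ccn1 (-0.624 to 0.244), Cdkn1a (-0.112 to 0.937), Col3a1 (-0.207 to 0.039), Col4a1 (-0.089 to 0.282), Col4a2 (-0.043 to 0.311), Col6a1 (-0.207 to 0.087), Fabp4 (-0.346 to 0.141), Fap (-0.045 to 0.348), Flna (-0.016 to 0.477), Fn1 (-0.27 to 0.397), Igf1 (-0.24 to 0.16), Jag2 (-1.178 to 0.017), Mmp11 (-0.496 to 0.452), Mmp14 (-0.221 to 0.057), Mmp3 (-0.163 to 0.331), Ndrg1 (-0.251 to 0.337), Pi16 (-0.476 to 0.231), Postn (-0.568 to 0.037), Thbs1 (-0.361 to 0.064) and Vegfa (-0.227 to 0.277). In the En1+ libraries alone the sign changed at Col3a1 (0.109), Col6a1 (0.225), Col6a2 (0.054), Igf1 (0.013), Jag2 (0.201), Mmp11 (0.001), Mmp14 (0.131), Ndrg1 (-0.289), Thbs1 (0.022) and Vegfa (-0.058), and in the -/- libraries alone at Fabp4 (0.044) and Fn1 (-0.019). In the mice with both libraries it changed at Col3a1 (0.168), Col6a1 (0.219), Col6a2 (0.029), Fabp4 (0.076), Igf1 (0.023), Mmp14 (0.119), Ndrg1 (-0.287) and Vegfa (-0.109), without the mice marked 8x8 at Fn1 (-0.09), Igf1 (0.012), Mmp11 (0.151), Mmp3 (-0.01) and Pi16 (0.313), and with the mouse as a replicate block at Mmp11 (0.089) and Ndrg1 (-0.149).

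The 3 control mice limit every comparison with NFs, and control 49/52 differed from the other controls. For genes with a few reads in the NFs, the intervals given cover counting error only and leave out the spread between mice.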
